A study of Homo sapiens with 4 samples.

Results

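The positions at which Star-PAP HITS-CLIP peaks were called in HEK 293 cells were counted along the autosomes, in windows of 1 Mb that do not overlap and start at position 1 of chromosomes 1 to 22 of hg19. Of 2897 such windows, the 2669 in which at least 0.8 Mb of sequence is determined were kept, and 2503 of these are determined throughout. At the edge of this rule, the kept window with the least sequence has 800000 determined bases and the fullest window left out has 783853. Values are given as summits per Mb of determined sequence, a summit being the single base at which a peak is highest.

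Star-PAP (gene TUT1) is a nuclear non-canonical poly(A) polymerase that acts on the 3′-ends of selected pre-mRNAs, and RBM10 is an RNA-binding protein that works with it as a co-regulator. In HITS-CLIP, proteins are crosslinked to RNA with ultraviolet light, precipitated with an antibody, and the RNA fragments that come with them are sequenced. The human genome alternates along each chromosome between stretches rich in G and C, which hold many short genes, and stretches rich in A and T, which hold few genes, some of them very long. HEK 293 is a line made from human embryonic kidney cells with adenovirus DNA, which was inserted at PSG4 on the long arm of chromosome 19. The line is aneuploid and is known for extra copies of the long arm of chromosome 1 (1q).

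All samples were HEK 293 cells crosslinked at 400 mJ/cm2, in 1 library per condition. The control was the pulldown with an antibody to Star-PAP, for which the labels name no siRNA, although the shared protocol gives a transfection with siRNA by Oligofectamine and harvest after 48 h. The other libraries were pulldowns with the same antibody after transient depletion of Star-PAP (siStar-PAP) or of RBM10 (siRBM10), and an IgG pulldown was the reference against which peaks were called. Since no condition was repeated, conditions were compared by their values and not by a test. Intervals are exact 95% intervals of a ratio of Poisson counts and cover counting error only, and the correlations over windows are descriptions. The points of these correlations share the IgG reference, the mappability of each window and its base composition. How far each siRNA lowered its target was not measured in these files.

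The windows held 379891 of the 411400 control summits, 303898 of 325797 siStar-PAP summits and 273775 of 294402 siRBM10 summits. The number of sequenced tags behind each list was not analysed here, so depth is described by the summits alone. GC content of the windows ranged from 33.5 to 59.1% with a median of 40.2%. The windows held the starts of 19072 protein-coding genes, with a median of 5 and a maximum of 67 per window, and 334 windows held none. GC content and the density of gene starts rose together over windows (Spearman's rho 0.70).

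Sequences from the densest control window, chr10:109000001-110000000, are shown first, as an example of a summit of high score and one of the control's commonest score. Each is 101 bases of the plus strand of hg19 centred on a summit, read from the reference genome, with G and C in capitals. Summits within 50 bases of an annotated untranslated region were passed over.
Control, highest score in its densest window, chr10:109241669-109241769: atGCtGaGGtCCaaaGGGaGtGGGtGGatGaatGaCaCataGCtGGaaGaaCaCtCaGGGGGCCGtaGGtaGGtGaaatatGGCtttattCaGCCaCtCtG
Control, commonest score in the same window, chr10:109498918-109499018: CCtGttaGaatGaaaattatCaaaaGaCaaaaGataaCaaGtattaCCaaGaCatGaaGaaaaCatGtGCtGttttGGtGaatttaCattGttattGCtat

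The commonest-score sequence, in an intron of the non-coding gene LINC01435, was 28.7% G and C. The highest-scoring one, between genes and with a score of 4.09, was 50.5%. The nearest siRBM10 summit lay 6634 bp and the nearest siStar-PAP summit 16968 bp from the latter.

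Summits were unevenly spread in all libraries, and more so after either depletion. In the control the density had a median of 153 per Mb, with 81.0 at the 10th and 188 at the 90th percentile of windows. In siStar-PAP the median was 93 and the percentiles were 45 and 213. In siRBM10 the median was 90, with 40 and 183.1. The spread beyond counting error, as a coefficient of variation, was 27.3% in the control, 61.4% in siStar-PAP and 56.0% in siRBM10. Neighbouring windows resembled each other, with a rho over 2624 adjacent pairs of 0.64 in the control, 0.78 in siStar-PAP and 0.80 in siRBM10.

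The libraries differed most in which windows were dense. Control summits were densest in AT-rich windows and the summits of both depletion libraries in GC-rich windows. Over the 2669 windows, the rho of density with GC content was -0.78 in the control, 0.88 in siStar-PAP and 0.88 in siRBM10. The windows were also split by GC content into 10 classes of 266 or 267. In the class with the lowest GC content the median density was 175 in the control, 45 in siStar-PAP and 37 in siRBM10. In the class with the highest it was 73, 242 and 198. The control fell from its highest median, 178 in the class next to the lowest, at each later class, while both depletion libraries rose at each class.

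**Figure D1:**
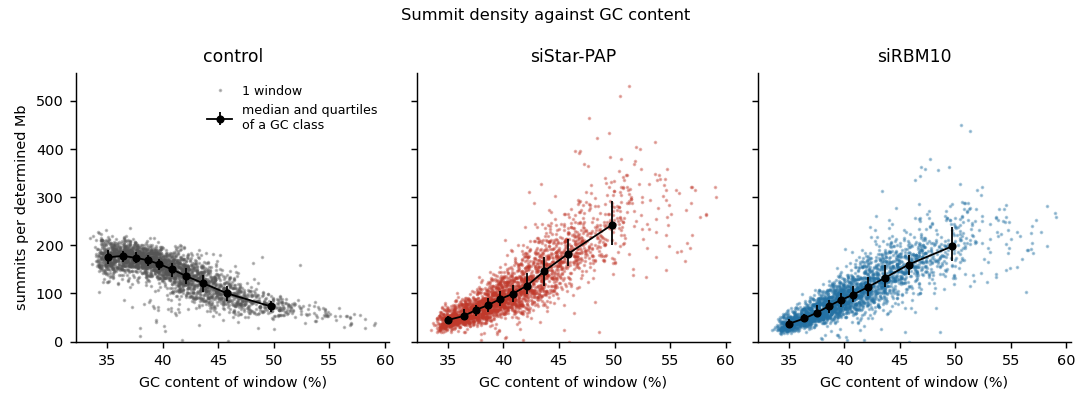
Summits per determined Mb (y axis) against GC content in % (x axis) in the control, siStar-PAP and siRBM10 libraries, with 1 point per 1-Mb window and the median and quartiles of 10 classes of windows by GC content in black. The medians run from 175 down to 73 in the control, from 45 up to 242 in siStar-PAP and from 37 up to 198 in siRBM10.

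Among the score classes counted, only control summits under 1.5 fell with GC content, and 239851 of these 242393 had a single score. The score is -log10 of the peak caller's p, and its commonest value was 1.33 in the control, 2.92 in siStar-PAP and 3.25 in siRBM10. This single value was held by 63.1% of control summits in the windows, against 22.1% in siStar-PAP and 22.2% in siRBM10. Control summits of the commonest score alone had a rho with GC content of -0.89, and all other control summits had a rho of 0.51. In the depletion libraries the commonest score also favoured AT-rich windows, with rho -0.50 in siStar-PAP and -0.38 in siRBM10, but the other summits reached 0.91 in both. The direction of the control's relation thus turns with this choice.

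From the lowest to the highest class of GC content, the commonest score made up 77.3% and then 18.9% of control summits. In siStar-PAP its share went from 60.1 to 2.43%, and in siRBM10 from 54.1 to 2.85%. Without it, the median density of control summits rose from 38 to 61 per Mb, and of siStar-PAP summits from 17 to 237 per Mb. By score, control summits under 1.5 had a rho with GC content of -0.88, those from 2 to 3 had 0.08, and those from 4 to 10 had 0.67. The scores of the lists are not on a shared scale, so a given score does not mean the same support in each library.

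**Figure D2:**
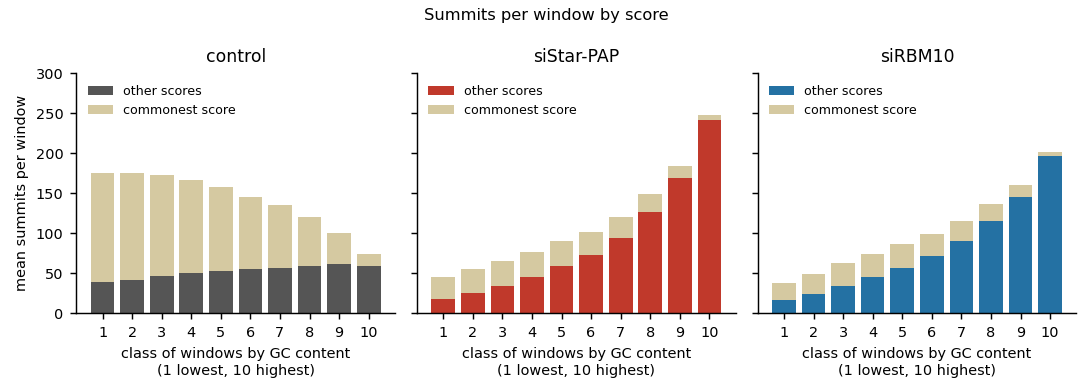
Mean number of summits per window (y axis) in 10 classes of windows from the lowest to the highest GC content (x axis), for the control, siStar-PAP and siRBM10 libraries, with summits of each library's commonest score stacked in beige on those of all other scores. The commonest score is 77.3% of control summits in the lowest class and 18.9% in the highest.

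With gene density, too, the control fell and both depletion libraries rose. The rho of summit density with protein-coding gene starts per Mb was -0.54 in the control, 0.69 in siStar-PAP and 0.66 in siRBM10. Most of this was shared with GC content: within classes of 1% GC content it was -0.02 in the control, 0.24 in siStar-PAP and 0.16 in siRBM10. Among windows of 40 to 42% GC, 21 held no gene start and 211 held 1 to 5. There were 189 with 6 to 15 starts and 21 with over 15. In this order, the median siStar-PAP densities were 81, 93, 110 and 101. The corresponding medians were 93, 94, 105.6 and 102 in siRBM10 and 144, 150, 149 and 148 in the control. The 225 windows with no overlap with a protein-coding gene, of median GC content 35.6%, had medians of 177 in the control, 49 in siStar-PAP and 43 in siRBM10. The 26 windows that lie wholly inside 1 such gene, of median GC content 36.5%, had medians of 156, 52.5 and 50. Against windows of like GC content, as described below, the windows without a protein-coding gene stood at log2 0.03, -0.09 and -0.07. Those wholly inside 1 gene stood at -0.08, -0.18 and -0.17.

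The next comparison was of each depletion library with the control, in the share of a library's summits that fell in a window. In siStar-PAP, 523 windows had at least 2-fold more of the library's summits than in the control, 19.6% of those compared, and 758 had at least 2-fold fewer, 28.4%. In siRBM10, 510 windows were at least 2-fold higher (19.1%) and 730 at least 2-fold lower (27.4%). Between siRBM10 and siStar-PAP only 2 windows were past 2-fold higher (0.0749%) and 5 past 2-fold lower (0.187%). The median log2 fold was -0.41 for siStar-PAP and -0.29 for siRBM10 against the control, and 0.02 between the depletions. Scaled instead to the median ratio, siStar-PAP had 701 windows higher and 404 lower than the control, siRBM10 had 653 and 476, and siRBM10 against siStar-PAP had 1 and 5, so the balance of higher and lower windows depends on the scaling.

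The windows past 2-fold followed base composition. Against the control, the log2 fold rose with GC content with rho 0.92 in siStar-PAP and 0.93 in siRBM10, and both comparisons share the control library. Of the 267 windows in the highest class of GC content, 260 were at least 2-fold higher in siStar-PAP and 256 in siRBM10. Of the 267 in the lowest class, 250 and 256 were at least 2-fold lower. Between siRBM10 and siStar-PAP the fold had a rho of -0.06 with GC content.

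**Figure D3:**
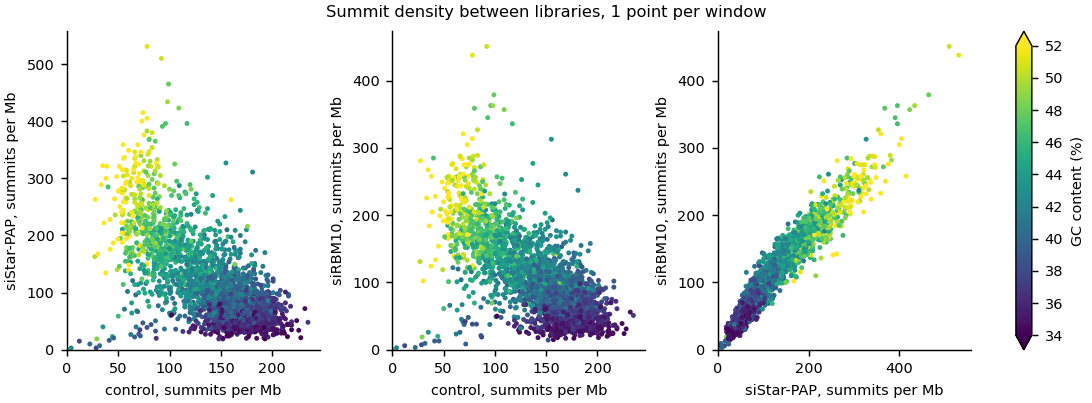
Summits per determined Mb in siStar-PAP and siRBM10 against the control, and in siRBM10 against siStar-PAP (x and y axes), with 1 point per window coloured by GC content in %. The depletion libraries fall along a single line (rho 0.96), while against the control density falls as the control's rises (rho -0.66 and -0.68).

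Densities of siStar-PAP and siRBM10 were nearly the same function of position. Their rho over windows was 0.96, and 0.84 within classes of GC content. Of siStar-PAP with the control the rho was -0.66, and of siRBM10 with the control -0.68, which became 0.07 and 0.00 within classes of GC content. When each library's commonest score was left out, the rho with the control was 0.62 for siStar-PAP and 0.61 for siRBM10, and 0.47 and 0.41 within classes of GC content. The sign of the relation between the control and the depletion libraries therefore also rests on the commonest score.

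The 3 densest siStar-PAP windows lie side by side or nearly so on 19q and were also the 3 densest of siRBM10. The window chr19:39000001-40000000 held 78 control, 531 siStar-PAP and 438 siRBM10 summits, at a GC content of 51.3%. The protein-coding genes of longest overlap with it are RYR1, a calcium release channel of muscle, ACTN4, an actin crosslinker, and PAK4, a protein kinase. Its share of the library was 8.51-fold (6.70 to 10.9) that of the control in siStar-PAP and 7.79-fold (6.11 to 10.0) in siRBM10. The window chr19:36000001-37000000, with the zinc finger genes ZNF565 and ZNF566 and the centrosomal gene WDR62, held 92, 510 and 451. In chr19:38000001-39000000, with SIPA1L3, ZNF573 and ZFP30, the numbers were 99, 465 and 379.

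The densest control windows were gene deserts. The window chr10:109000001-110000000 overlaps no protein-coding gene and held 235 control, 48 siStar-PAP and 51 siRBM10 summits. In chr21:21000001-22000000 there were 232, 72 and 56, and in chr13:89000001-90000000 there were 228, 21 and 31, again with no protein-coding gene. These windows have 37.0, 34.9 and 34.2% GC. In the control, 69, 78 and 76 of their summits carried a score other than the commonest.

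The 3 largest siStar-PAP folds over the control were in gene-rich windows near the ends of chromosome arms, and the first and the next of them were also the largest of siRBM10. The window chr17:79000001-80000000, of 58.2% GC, held 26 control, 250 siStar-PAP and 267 siRBM10 summits, which is 12-fold (8.01 to 18.8) and 14.2-fold (9.51 to 22.2) of the control. It holds most of NPLOC4, a cofactor of the segregase p97, BAIAP2, an adaptor at the cell's edge, and BAHCC1. The window chr9:139000001-140000000, with the receptor gene NOTCH1, the signalling adaptor TRAF2 and SEC16A of endoplasmic reticulum exit sites, held 33, 306 and 254. In chr20:61000001-62000000, with DIDO1, NTSR1 and SLCO4A1, there were 30, 260 and 203. The commonest control score was absent from these 3 windows, where 26 of 26, 33 of 33 and 30 of 30 control summits had another score.

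The smallest folds were in AT-rich windows. In chr3:85000001-86000000, with the adhesion gene CADM2, there were 193 control, 19 siStar-PAP and 32 siRBM10 summits. Here siStar-PAP stood at 0.123-fold (0.0725 to 0.197) of the control. In chr14:27000001-28000000, with the neuronal splicing regulator NOVA1, the numbers were 201, 26 and 18, and siRBM10 stood at 0.124-fold (0.0722 to 0.201). In chr13:86000001-87000000, with SLITRK6, they were 178, 29 and 17. The gene desert chr13:69000001-70000000 held 215, 23 and 25.

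Between siRBM10 and siStar-PAP, 112 of 2669 windows had an interval of the ratio wholly above 1 and 118 wholly below, or 4.20 and 4.42% of the windows. The clearest difference was chr10:106000001-107000000, which lies largely in SORCS3, a sorting receptor of neurons. It held 63 siStar-PAP and 115 siRBM10 summits, 2.03-fold (1.48 to 2.80), and 125 control summits. It was picked as one of the 3 highest folds. In chr4:130000001-131000000, with C4orf33 and SCLT1, there were 19 and 34 (1.99-fold, 1.10 to 3.69). The other extremes were windows of few summits on 9p and 5q, such as chr9:41000001-42000000 with 9 in siStar-PAP and 3 in siRBM10.

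The windows of the depleted gene TUT1 and of PSG4 were dense in both depletion libraries. The window of TUT1, the gene of Star-PAP, chr11:62000001-63000000, held 83 control, 247 siStar-PAP and 181 siRBM10 summits at 46.7% GC. The window of PSG4, chr19:43000001-44000000, held 90, 242 and 236. Set against windows of like GC content on other chromosomes, as described next, these were log2 -0.12, 0.28 and 0.05 for TUT1 and -0.36, 0.67 and 0.81 for PSG4, the latter inside the dense stretch of 19q.

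To compare chromosome arms at like base composition, the density of each window was divided by the median density, in the same library, of the windows on other chromosomes whose GC content was within 0.5 percentage points. At least 20 such windows were found for 2601 of the 2669 windows. The value below is the median of the log2 ratio over an arm's windows, and arms with at least 10 windows are 39 in number. Where fewer or more copies of the DNA of an arm, and less or more RNA from it, move its density, they cannot be told apart here, and DNA copy number was not measured in these files.

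Arms differed more after depletion than in the control. The medians ranged from -0.17 to 0.28 in the control, from -0.54 to 0.74 in siStar-PAP and from -0.54 to 0.79 in siRBM10. Arms accounted for 12.2% of the variance of the log2 ratio in the control, 33.3% in siStar-PAP and 34.2% in siRBM10. Over the 39 arms the rho between siStar-PAP and siRBM10 was 0.95. With the control it was 0.06 for siStar-PAP and -0.02 for siRBM10, and 0.51 and 0.51 when the commonest score was left out. Without that score the arm medians ranged from -0.54 to 0.39 in the control, -0.80 to 0.79 in siStar-PAP and -0.89 to 0.79 in siRBM10. Arms then accounted for 12.3, 29.7 and 30.0% of the variance, so the control's range was wider and its share still the smallest.

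**Figure D4:**
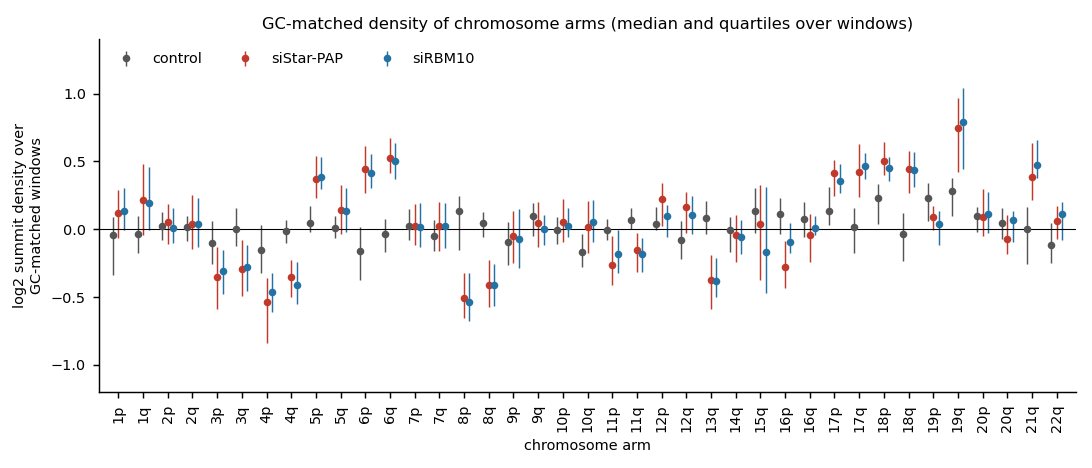
Log2 of summit density over windows of like GC content on other chromosomes (y axis) for 39 chromosome arms (x axis), with the median and quartiles over the arm's windows in the control, siStar-PAP and siRBM10 libraries. Both depletion libraries stand high on 19q (0.74 and 0.79) and 6q (0.53 and 0.51) and low on 8p (-0.51 and -0.54), where the control stands at 0.28, -0.04 and 0.13.

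The arm 19q was the highest of the 39 in each library, at 0.28 in the control, 0.74 in siStar-PAP and 0.79 in siRBM10. Without the commonest score it ranked 2 in the control at 0.22, behind 21q at 0.39. The arm 6q followed in both depletion libraries at 0.53 and 0.51, with 108 of its 109 windows above 0 in each, while the control was at -0.04. Other arms high in both depletion libraries were 6p (0.44 and 0.41), 18p (0.51 and 0.45), 18q (0.44 and 0.44), 17p (0.42 and 0.36), 17q (0.42 and 0.47), 5p (0.37 and 0.39) and 21q (0.38 and 0.48). In the control these arms lay between -0.16 on 6p and 0.23 on 18p. Without the commonest score the control lay between -0.27 on 18q and 0.39 on 21q, with 18p at -0.21. On 18p, 15 of 15 windows were above 0 in siStar-PAP and 14 of 15 in siRBM10.

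The low arms were also shared by the depletion libraries. The arm 4p stood at -0.54 in siStar-PAP and -0.47 in siRBM10, and 8p at -0.51 and -0.54. The arms 8q (-0.42 and -0.42), 13q (-0.37 and -0.38), 4q (-0.35 and -0.41), 3p (-0.35 and -0.31) and 3q (-0.29 and -0.28) were lower than windows of like GC content as well. On 4q, 104 of 138 windows had at least 2-fold fewer siStar-PAP than control summits, or 75.4%, against 28.4% over all windows. These folds were not matched for GC content, with which they rose (rho 0.92). The windows of 4q had a median GC content of 37.2%, against 40.2% over all windows. In the control, 8p was at 0.13, 13q at 0.08, 4q at -0.01 and 4p at -0.16, and without the commonest score these were -0.25, 0.11, -0.06 and -0.54.

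The arm 1q, with 102 windows, was close to 1p when all summits were counted. Its median was -0.03 in the control, 0.22 in siStar-PAP and 0.19 in siRBM10, and that of 1p was -0.04, 0.12 and 0.14. Among the 39 arms 1q ranked 28 in the control, 11 in siStar-PAP and 10 in siRBM10, so as a whole it was not among the most elevated arms. Without the commonest score 1q ranked 23, 14 and 10, with medians of 0.01, 0.16 and 0.21. Those of 1p were then higher, at 0.17, 0.32 and 0.30. By share of the library's summits, 20 of the 102 windows (19.6%) were at least 2-fold higher in siStar-PAP than in the control, against 19.6% of all windows, and 19 (18.6%) at least 2-fold lower, against 28.4%. The median densities of the arm were 152.5, 108 and 111.5 per Mb.

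In both depletion libraries 1q was highest in its outer part. Cut into 3 parts of 34 windows, it stood in siStar-PAP at 0.11, 0.26 and 0.51 from the centromere outwards, and in siRBM10 at 0.08, 0.17 and 0.61. In the control the same parts stood at 0.07, -0.03 and -0.17, and at 0.03, 0.01 and -0.01 without the commonest score. A plateau ran from chr1:223000001 to chr1:245000000, and its bounds were set after the values were seen. Over its 22 windows the median was 0.65 in siStar-PAP, with 21 windows above 0, and 0.76 in siRBM10, with 22 above 0. The control stood at -0.28 there, with 21 of 22 windows below 0, and at 0.07 without its commonest score.

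Densities on the plateau had a median of 185.5 in siStar-PAP and 191.5 in siRBM10, against 110.2 in the control. The window chr1:226000001-227000000, with the inositol trisphosphate kinase gene ITPKB, the cell cycle gene LIN9 and STUM, held 40 control, 285 siStar-PAP and 285 siRBM10 summits, which is 8.91-fold (6.38 to 12.7) and 9.89-fold (7.08 to 14.1) of the control. The 76 windows between the centromere and the plateau had a median of 0.15 in both depletion libraries and 0.00 in the control.

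Past the plateau the density dropped to the end of the arm. The 4 windows from chr1:245000001 to chr1:249000000 held 105, 60, 48 and 17 siStar-PAP summits and 115, 55, 40 and 13 siRBM10 summits from the inner to the outer window. In the control they held 163, 174, 165 and 138. Against windows of like GC content their medians were -0.96 in siStar-PAP and -1.13 in siRBM10, and 0.24 in the control, or -0.08 in the control without its commonest score. The outermost window, chr1:248000001-249000000, is a cluster of olfactory receptor genes with 36 gene starts, and its siRBM10 share was 0.131-fold (0.0679 to 0.231) of the control.

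Over all 26 windows with at least 5 olfactory receptor gene starts, the median was 0.04 in the control, -0.12 in siStar-PAP and -0.24 in siRBM10. Their values in siStar-PAP ran from -4.97, in a sparse window of 6p described below, to 0.45. Of these, 7 were at least 2-fold lower in siStar-PAP than in the control, or 26.9%, close to the 28.4% of all windows. The 26 windows with at least 5 zinc finger genes had medians of 0.11, 0.13 and 0.06, with values in siStar-PAP from -1.07 to 1.39. The 9 keratin windows had 0.03, 0.16 and 0.27. The 3 windows of histone genes had -0.51, 0.39 and 0.39, and the 1 window of clustered protocadherins had -0.20, 0.26 and -0.08.

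Steps between stretches of different density were placed in siStar-PAP and read in the other libraries, taking the medians of 10 windows on either side of each of 1849 boundaries. The 12 largest steps at least 10 Mb apart had the same sign in siRBM10 in 12 cases, in the control in 6, and in the control without its commonest score in 9. These were picked as the extremes of siStar-PAP. Over all 1849 boundaries, the rho of its steps with those of siRBM10 was 0.58. With those of the control it was 0.05, and 0.41 without the commonest score. The step at chr15:63000001 went from -0.26 to 0.44 in siStar-PAP and from -0.35 to 0.30 in siRBM10, with 0.20 and 0.21 in the control. Without the commonest score the control too rose there, from -0.29 to 0.29. At chr19:46000001 siStar-PAP fell from 1.03 to 0.40 and siRBM10 from 1.01 to 0.30, with 0.29 on both sides in the control. At chr1:224000001, 1 window into the 1q plateau, siStar-PAP rose from 0.13 to 0.65 and siRBM10 from 0.19 to 0.75. The control there fell from -0.11 to -0.43 with all summits and rose from -0.30 to -0.01 without its commonest score. At chr7:77000001 the values went from -0.39 to 0.25, from -0.23 to 0.31 and, in the control, from 0.25 to 0.01.

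The step on 15q split the arm into an inner part of 42 windows and an outer part of 39. The inner part had a median of -0.30 in siStar-PAP, -0.37 in siRBM10 and 0.18 in the control. The outer part had 0.34, 0.33 and 0.06. Without the commonest score the control stood at -0.23 in the inner and 0.06 in the outer part. Against the control, by share of summits, 0 of 42 inner and 15 of 39 outer windows were at least 2-fold higher in siStar-PAP. Over all windows this was 19.6%. At least 2-fold lower were 12 of 42 inner windows, close to the 28.4% of all windows, and 0 of 39 outer windows. These folds were not matched for GC content, whose median was 41.1% in the inner and 43.4% in the outer part. On 19q, the 18 windows inside the step had GC-matched medians of 0.92 in siStar-PAP, 1.01 in siRBM10 and 0.29 in the control. Every one of the 17 with a value was above 0 in both depletion libraries. The 13 windows outside it had 0.40, 0.36 and 0.28.

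**Figure D5:**
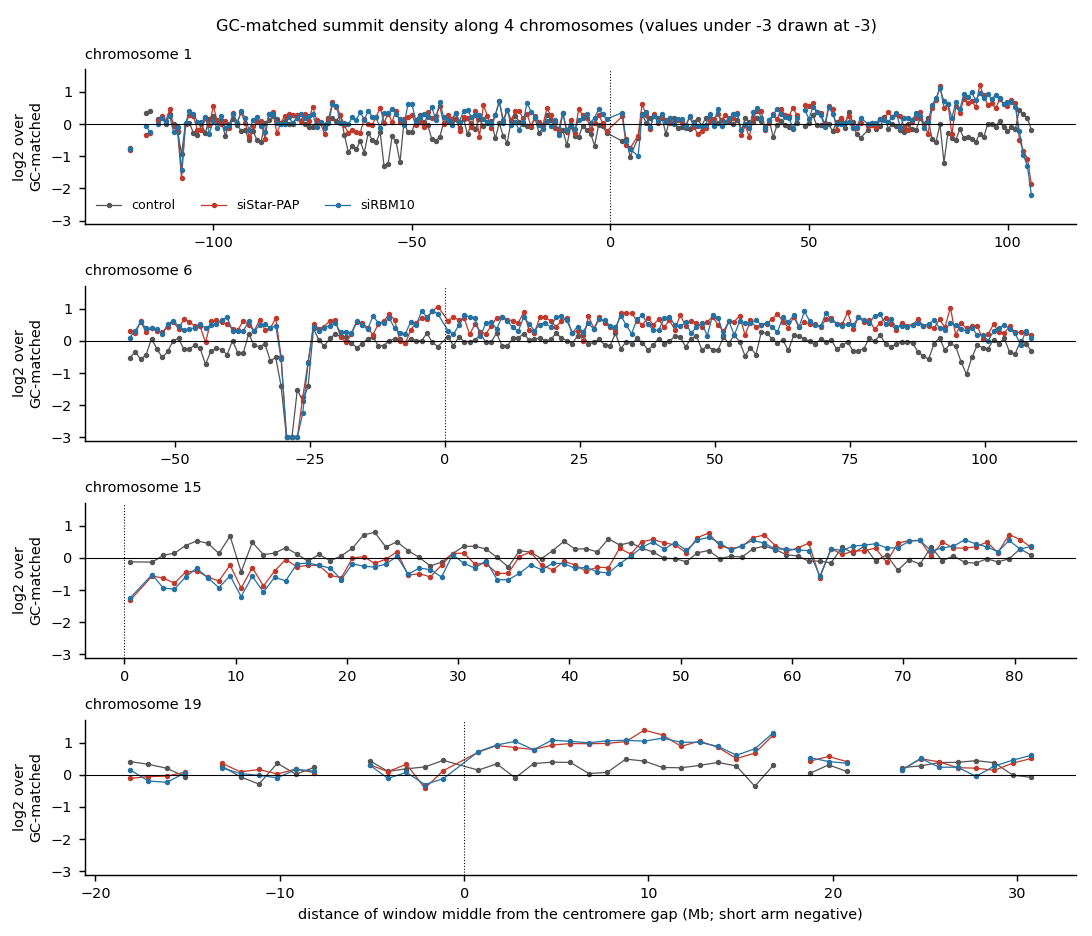
Log2 of summit density over windows of like GC content (y axis) against the distance of the window from the centromere gap in Mb (x axis, short arm negative) on chromosomes 1, 6, 15 and 19, with 1 point per window in the control, siStar-PAP and siRBM10 libraries. The plateau and drop at the end of 1q, the sparse windows of 6p, the step on 15q and the dense inner part of 19q run together in siStar-PAP and siRBM10.

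The sparsest windows were shared by all libraries. On 6p, chr6:30000001-31000000 held 1 control, 0 siStar-PAP and 0 siRBM10 summits, although it is fully determined, has 45.9% GC and holds 33 gene starts, among them TRIM26 and ABCF1. A count of 0 allows up to 3 summits. In chr6:29000001-30000000, with the GABA receptor gene GABBR1 and olfactory receptor genes, there were 4, 3 and 3. The 6 windows from chr6:28000001 to chr6:34000000, which hold the major histocompatibility complex, the genes of antigen presentation, had medians of -1.69 in the control, -2.61 in siStar-PAP and -2.71 in siRBM10. The HLA window with at least 5 genes of that name, chr6:32000001-33000000, held 35, 40 and 26 summits.

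On the outer and the inner side of these windows 6p stood at 0.45 and 0.54 in siStar-PAP and at 0.41 and 0.50 in siRBM10. The lists also hold summits on alternate versions of this stretch that hg19 carries as separate sequences, 84 in the control on 7 such sequences, 28 in siStar-PAP and 23 in siRBM10. On chromosome 17 an alternate sequence held 31, 10 and 5 summits. The windows chr17:43000001-44000000 and chr17:44000001-45000000 were at -0.56 and -0.52 in siStar-PAP, and their neighbours on either side were at 0.55 and 0.66. In siRBM10 they were at -0.37 and -0.66, with neighbours at 0.45 and 0.56. The control was at 0.05 and -0.31, with neighbours at 0.08 and 0.21, so its first window was not low. Without the commonest score the control's median over both windows was -0.82. Tags that fit both a chromosome and its alternate version have no unique place. Their part in the sparse windows of 6p and in these windows of chromosome 17 was not tested.

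The 9 windows of 9p next to the centromere gap, from chr9:38000001 to chr9:47000000, were the other long sparse stretch. They had medians of -1.85 in the control, -2.04 in siStar-PAP and -2.64 in siRBM10, and between 3 and 115 siStar-PAP summits each. They hold duplicated gene families such as SPATA31A and FOXD4. On 5q, chr5:69000001-70000000 held 12, 15 and 6 summits. Windows within 5 Mb of chromosome ends had GC-matched medians of 0.03 in the control, -0.06 in siStar-PAP and -0.15 in siRBM10, and windows within 5 Mb of centromere gaps had 0.03, -0.04 and -0.06.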

How the data were processed

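HITS-CLIP was carried out in HEK 293 cells in 4 samples, of which the 3 with a peak list (control, siStar-PAP, siRBM10) were analysed and the IgG pulldown entered as the authors' reference. The authors filtered and collapsed reads with the CLIP Tool Kit, trimmed adapters with Cutadapt 1.14, checked quality with FastQC 0.72, aligned to hg19 with BWA 0.7.12, kept unique tags of at least 18 nt, and called peaks with MACS2 against IgG (mFold 5 to 50, fragment 500 bp, p 0.05). The deposited score of each summit is -log10 of the p-value, and no other unit was used. Replicates do not exist, so precision is counting error only.

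Summits were counted with Python 3.11.15, numpy 2.4.6, pandas 2.3.3 and scipy 1.17.1, and plots were drawn with matplotlib 3.10.9. GC content was read from the hg19 sequence and gene starts from GENCODE release 44 lifted to it. Folds compare shares of a library's summits in windows after 0.5 was added to each count for the log2, and 2-fold was the threshold. The code was tested on simulated counts. The windows named were the 3 densest and 3 sparsest of each library, the 3 largest and smallest folds of each comparison and those of PSG4 and TUT1, with up to 3 genes of longest overlap, and gene families were windows with at least 5 gene starts. Some of these genes, and the sequences of the densest siStar-PAP and siRBM10 windows, are not reported here. The windows, lists and places were chosen with earlier results of these data known, and the stretches of 1q, 15q, 19q, 6p and 9p and the steps after seeing the values. Alternatives were stricter scores, leaving out the commonest score, merging summits, other window sizes, offsets and filters, leaving out chromosome 19, another gene measure, matching and scaling.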

Additional observations from a re-analysis of the deposited data

Results flagged for a closer look

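Summits outside chromosomes 1 to 22 entered no window. They numbered 28442 in the control, 19437 in siStar-PAP and 18297 in siRBM10, on chromosomes X and Y, the mitochondrial genome and unplaced or alternate sequences. On the alternate versions of the major histocompatibility stretch of chromosome 6 there were 84 control, 28 siStar-PAP and 23 siRBM10 summits, while the same stretch of the chromosome itself holds the sparsest window of each library. They were picked out because they lie in data that the comparisons did not use.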

How the results depend on the processing

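In all, 18 results were recomputed under 12 other settings, giving 174 values, of which 131 stayed near the main value, 29 moved and 14 reversed. Leaving out chromosome 19 moved 0 of 18. With p at most 0.01, a score of 4 or more, or the commonest score left out, control relations reversed. The rho with GC content became 0.473, 0.676 and 0.506, that with gene density 0.418, 0.491 and 0.437, that of siStar-PAP with the control 0.559, 0.491 and 0.62, and that of siRBM10 with the control 0.546, 0.413 and 0.605. The control's 1q value became 0.138 with a score of 4 or more and 0.0116 without the commonest score, around a main value near 0. With a score of 4 or more, the rho between the depletion libraries was 0.688, with GC content 0.698 in siStar-PAP and 0.607 in siRBM10, with gene density 0.564 and 0.435, and the 1q values were 0.485 and 0.354.

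Shares of windows past 2-fold moved as follows. For siStar-PAP against the control, 2.59% were higher and 7.94% lower with p at most 0.01, 9.44% higher without the commonest score, and 15.1% lower when scaled to the median ratio. For siRBM10 against the control, 2.29% were higher and 9.63% lower with p at most 0.01, 7.61% higher without the commonest score, 16.6% lower with a score of 4 or more, and 17.8% lower when scaled to the median ratio. For siRBM10 against siStar-PAP, where the main shares rest on 2 and 5 windows, the share higher was 17.7% with a score of 4 or more, 0.862% without the commonest score, 0.431% in windows of 0.5 Mb, 0.0375% with p at most 0.01, merged summits or median scaling, and 0% in windows of 2 Mb or shifted by 0.5 Mb. The share lower was 8.21% with a score of 4 or more, 0.337% without the commonest score, 0.468% in windows of 0.5 Mb, 0.0757% in windows of 2 Mb and 0.115% with at least 0.95 Mb determined. With a score of 4 or more few summits per window remain. Other causes were not tested. No paired analysis was possible because each condition is 1 library.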
